A study of Mus musculus with 4 samples.

Results

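Brain RNA of Ids-ko and wt mice was examined for 9 genes of the oligodendrocyte lineage, Pdgfra, Olig1, Olig2, Sox10, Gpr17, Bmp4, Enpp6, Nkx2-2 and Sox8. Gene symbols were matched to the Entrez identifiers of the count table, which lists 12700 genes, and 8 of the 9 genes were found. Gpr17, a receptor of committed precursors, is not analysed here. No filter on low reads was applied, and the 8 genes had between 39 and 4665 reads in every library. The mice were C57BL/6 animals aged 9 months. The Ids-ko genotype (H), a model of mucopolysaccharidosis type II, lacks iduronate 2-sulfatase, a lysosomal enzyme that degrades glycosaminoglycans, and was set against wt mice (WT). RNA was taken from the cerebral cortex (Cx) and from midbrain, diencephalon and hippocampus together (M), which gives the 4 conditions CxH, CxWT, MH and MWT. Per the study's methods both areas were dissected from each brain, so by their labels CxH and MH share mice, as do CxWT and MWT, though the Ids levels given further on go against this. Each condition is 1 library made from the pooled RNA of 7 mice, so no spread between animals can be seen and a test on the reads of a pair compares those libraries, not the conditions.

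Oligodendrocytes, the cells that wrap axons in myelin, arise throughout life from precursors that carry the PDGF receptor Pdgfra on their surface. OLIG1, OLIG2 and SOX10 are transcription factors held through the lineage, NKX2-2 and SOX8 act with them as cells commit and mature, and ENPP6 is a choline phosphodiesterase that marks newly formed oligodendrocytes. BMP4 is a secreted ligand that turns precursors away from the oligodendrocyte fate and is itself made by committed cells. In RNA from bulk tissue, fewer cells of a type and less RNA per cell cannot be told apart.

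The libraries were first set against their labels. Levels are given as RPM, the reads on a gene scaled by the aligned reads of its library. The libraries held between 16380080 and 23475080 reads on genes. Ids, the disrupted gene, had 135 RPM in CxH, 354 RPM in CxWT, 368 RPM in the library labelled MH and 155 RPM in the library labelled MWT. Ids was thus low in CxH and in the library labelled MWT, which goes against the genotype label in M. The 15 cortical markers summed to 2384 RPM in CxH, 425 RPM in CxWT, 2168 RPM in MH and 354 RPM in MWT. Hippocampus, a part of M, also makes several of these cortical markers. The 16 midbrain and diencephalon markers found summed to 33.8, 484, 44.5 and 417 RPM in the same order, with En1 at 0 reads in MH. The area markers therefore separated the libraries labelled H from those labelled WT, not those labelled Cx from those labelled M. In what follows a library is called only by its label, and calls among the lineage genes are given for all 6 pairs of libraries. Most other lists are read in CxH against CxWT and in MH against MWT only. A difference between libraries labelled H and WT cannot be told apart from a difference of area. The cortex label was not borne out by its markers in CxWT, nor the M label by its markers in MH.

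Promoter sequences are shown for Enpp6 and Nkx2-2, which varied most between libraries, and for Pdgfra, which varied least. RefSeq promoters of GRCm38.p6, 300 bases each with 250 bases before the gene's start and 50 after it, were given for 6 of the 8 genes. Positions are chr8:46986637-46986936 on the plus strand for Enpp6, chr2:147186353-147186652 on the minus strand for Nkx2-2 and chr5:75152001-75152300 on the plus strand for Pdgfra. Capitals mark matches to CAGCTG or CAGATG, forms of the E-box that OLIG proteins bind, or to ACAAAG or ACAATG, forms of the motif of SOX proteins, on either strand.
Enpp6: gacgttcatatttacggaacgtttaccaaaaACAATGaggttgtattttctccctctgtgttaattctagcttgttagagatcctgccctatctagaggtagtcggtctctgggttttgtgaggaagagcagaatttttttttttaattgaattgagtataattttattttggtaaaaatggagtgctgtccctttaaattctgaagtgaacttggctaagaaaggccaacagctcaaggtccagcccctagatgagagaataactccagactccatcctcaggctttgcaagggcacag
Nkx2-2: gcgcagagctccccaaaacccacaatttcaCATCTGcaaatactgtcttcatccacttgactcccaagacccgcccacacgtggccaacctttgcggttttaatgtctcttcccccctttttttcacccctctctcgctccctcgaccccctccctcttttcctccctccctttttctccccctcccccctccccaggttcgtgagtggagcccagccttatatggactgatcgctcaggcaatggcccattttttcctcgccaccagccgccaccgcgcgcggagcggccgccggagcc
Pdgfra: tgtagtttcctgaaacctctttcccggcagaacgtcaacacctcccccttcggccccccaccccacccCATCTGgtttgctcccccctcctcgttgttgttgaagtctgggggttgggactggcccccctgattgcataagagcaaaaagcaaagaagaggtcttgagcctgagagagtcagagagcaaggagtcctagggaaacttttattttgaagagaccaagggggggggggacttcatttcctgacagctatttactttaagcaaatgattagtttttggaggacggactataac
The Enpp6 window held ACAATG at base 32, and the Nkx2-2 and Pdgfra windows held CATCTG, the reverse complement of CAGATG, at bases 31 and 69. The Olig2 window held CATTGT, the reverse complement of ACAATG, at base 183, and those of Bmp4 and Sox8 held no match. No match in these windows overlapped another. CAGCTG was found in 16.3%, CAGATG in 17.2%, ACAAAG in 18.7% and ACAATG in 12.6% of the 32851 promoters of the same length, so such a match is common and describes the window only. The Enpp6 window is poor in GC, at 40.3%, against 59.7% for Nkx2-2 and a median of 52.7% over all promoters.

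Levels were compared between genes as RPKM, RPM per kilobase of the longest protein-coding transcript. Olig1 was the most abundant gene of the lineage, with a mean of 49.7 RPKM over the 4 libraries. Sox10, Olig2 and Sox8 followed at 13.2, 10.4 and 10.3 RPKM, then Pdgfra at 7.01 RPKM. Nkx2-2, Enpp6 and Bmp4 were rare, at 2.71, 1.29 and 0.965 RPKM. The steps from Olig1 to the next genes, from Pdgfra down to Nkx2-2 and from Nkx2-2 down to Enpp6 and Bmp4 held in every library. The neighbours Sox10, Olig2 and Sox8 changed places between libraries, as did Enpp6 and Bmp4, and Pdgfra, at 7.32 RPKM, stood beside Sox8, at 7.21 RPKM, in MWT.

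**Figure D1:**
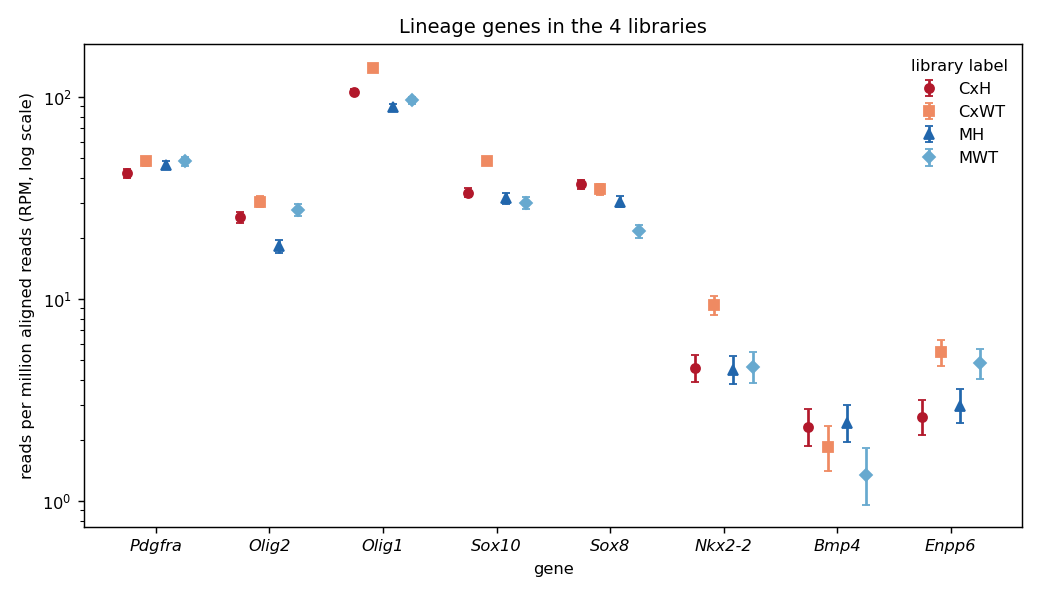
Levels in RPM (log axis) of the 8 lineage genes in the libraries labelled CxH, CxWT, MH and MWT, 1 library each; bars are exact 95% Poisson intervals, which cover counting error only. Pdgfra is nearly level, Nkx2-2 stands apart in CxWT, and Enpp6 is lower in both libraries labelled H than in both labelled WT.

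Pdgfra, the receptor that defines the precursors, was the steadiest of the genes. It lies on chromosome 5 from 75548316 to 75594229 (NCBI37/mm9) and had 41.9 RPM in CxH, 48.04 RPM in CxWT, 46.2 RPM in MH and 48.1 RPM in MWT. The highest level was 1.15 times the lowest. Both libraries labelled H were below both labelled WT, but CxWT and MWT differed by a log2 ratio of only -0.0025 ± 0.053, where ± is the standard error from counting. The log2 ratio was -0.20 ± 0.051 between CxH and CxWT and -0.06 ± 0.052 between MH and MWT, where the median of all genes was -0.07. Meningeal fibroblasts also carry Pdgfra, and 7 fibroblast markers summed to 155 RPM in CxH, 135 RPM in CxWT, 142 RPM in MH and 128 RPM in MWT. Their part in the level of Pdgfra was not tested.

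The rest of the PDGF system was read from 6 genes. A gene was called up- or down-regulated where the log2 ratio of RPM reached 0.7 in size and the Poisson likelihood ratio test passed at 0.05 (both thresholds are those of the original methods). Of the 6 genes, 1 was up-regulated and 1 down-regulated in CxH against CxWT, and the same numbers held for MH against MWT. Of all genes, 9.46% were higher and 11.5% lower in the first pair, and 12.3% and 12.7% in the second. The gene called higher was in both cases Pdgfb, a ligand made by endothelial cells and neurons, with 29.7 RPM in CxH, 14.6 RPM in CxWT, 28.3 RPM in MH and 10.4 RPM in MWT. Pdgfd, another ligand, was called lower in both, with log2 ratios of -0.90 and -0.85, calls lost at -0.42 and -0.40 after the GC and length correction. Pdgfa, the ligand that drives precursor division through Pdgfra, had 17.8, 19.7, 18.9 and 13.5 RPM and was not called in either.

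Olig1 and Olig2 are neighbours on chromosome 16, where Olig2 spans 91225795 to 91228922 and Olig1 spans 91270014 to 91272184, with 41.1 kb between them. Olig1 had 107 RPM in CxH, 139 RPM in CxWT, 89.4 RPM in MH and 96.5 RPM in MWT. Olig1 was highest in CxWT, and both libraries labelled Cx were above both labelled M. Its log2 ratio was -0.38 ± 0.031 between CxH and CxWT, -0.11 ± 0.037 between MH and MWT and -0.63 ± 0.033 between MH and CxWT, and it was called in none of the 6 pairs. Olig2 had 25.4 RPM in CxH, 30.4 RPM in CxWT, 18.2 RPM in MH and 27.6 RPM in MWT. Olig2 was lowest in the library labelled MH. It was down-regulated there against CxWT, at -0.74 ± 0.071, a call lost at -0.63 with TMM or DESeq2 scaling, and stood at -0.60 ± 0.075 against MWT, short of the threshold, which it passed at -1.01 after the GC and length correction. In spite of their closeness these genes did not keep 1 ratio, since Olig1 stood at 3.93 to 5.50 times the RPKM of Olig2 over the 4 libraries.

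Sox10, the factor that opens myelin genes together with MYRF, lies on chromosome 15 from 78985343 to 78994920. It had 33.7 RPM in CxH, 48.3 RPM in CxWT, 31.5 RPM in MH and 29.8 RPM in MWT. As counted, CxWT stood above the other 3 libraries, which lay close together. Its log2 ratio was -0.52 ± 0.054 between CxH and CxWT, 0.08 ± 0.065 between MH and MWT and 0.69 ± 0.061 between CxWT and MWT, and none was called. After the GC and length correction these were -0.85, -0.62 and 0.11, so MWT then lay near CxWT. Sox8, a relative of Sox10 in the SoxE group that is also made by astrocytes, lies on chromosome 17 from 25702837 to 25707631. It had 37.1 RPM in CxH, 34.9 RPM in CxWT, 30.4 RPM in MH and 21.6 RPM in MWT. Here MWT stood below the rest, and Sox8 was called higher in CxH than in MWT, at 0.78 ± 0.069, a call lost at 0.67 with the column totals as scaling. Within a library, Sox8 reads amounted to 1.10 times those of Sox10 in CxH and 0.966 times in MH, against 0.723 times in CxWT and 0.725 times in MWT.

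Nkx2-2, a homeodomain factor of the sonic hedgehog pathway that is raised as precursors commit, stood high in 1 library. It lies on chromosome 2 from 147003282 to 147019979. It had 9.31 RPM in CxWT, and 4.55 RPM in CxH, 4.47 RPM in MH and 4.59 RPM in MWT. The 95% counting interval in CxWT, 8.31 to 10.4 RPM, lay above those of the other 3 libraries, which overlapped one another. Nkx2-2 was accordingly down-regulated in CxH against CxWT, at -1.03 ± 0.14, and in MH against CxWT, at -1.06 ± 0.14, and up-regulated in CxWT against MWT, at 1.02 ± 0.15. Between MH and MWT its log2 ratio was -0.04 ± 0.17. Its 3 calls held with an assumed coefficient of variation between pools of 0.2. Nkx2-2as and 6430503K07Rik, annotated on the opposite strand, overlap Nkx2-2, and the sources used here do not state whether strand was used in counting, so reads of these genes cannot be told apart from its own.

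Enpp6, the marker of newly formed oligodendrocytes, followed the H and WT labels. It lies on chromosome 8 from 48072279 to 48180249, and had 2.60 RPM in CxH, 5.44 RPM in CxWT, 2.97 RPM in MH and 4.80 RPM in MWT. Both libraries labelled H were below both labelled WT, and their 95% counting intervals, at most 3.58 RPM in H and at least 4.04 RPM in WT, did not overlap. Enpp6 was down-regulated in CxH against CxWT, at -1.07 ± 0.18, in CxH against MWT, at -0.89 ± 0.19, and in MH against CxWT, at -0.87 ± 0.17. Between MH and MWT it reached -0.69 ± 0.18, just short of the threshold. There it was -0.75, and called, with the column totals of the counts as scaling, -0.63 with TMM or DESeq2 scaling and -0.43 after the GC and length correction. Relative to Pdgfra in the same library, Enpp6 reads amounted to 6.20% in CxH and 6.43% in MH, against 11.3% in CxWT and 9.98% in MWT. With an assumed coefficient of variation between pools of 0.2, the call in CxH against CxWT held and the other calls of Enpp6 were lost. The gene had 100 to 183 reads per library. A gene annotated on the opposite strand, 4930579M01Rik, overlaps Enpp6.

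Bmp4 was higher in the libraries labelled H. It lies on chromosome 14 from 47003195 to 47010344, and had 2.34 RPM in CxH, 1.84 RPM in CxWT, 2.44 RPM in MH and 1.35 RPM in MWT, from 90, 62, 91 and 39 reads. Both libraries labelled H were above both labelled WT. Bmp4 was up-regulated in MH against MWT, at 0.85 ± 0.28, and in CxH against MWT, at 0.79 ± 0.28 (0.69, not called, with the column totals as scaling), while CxH and CxWT differed by 0.34 ± 0.24. The counting intervals of CxH and CxWT overlapped, and so did those of CxWT and MWT. Both calls of Bmp4 were lost with an assumed coefficient of variation between pools of 0.2. Gm15217 and Gm15222, annotated on the opposite strand, overlap Bmp4.

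Calls among the 8 genes were read against the calls among all 12700 genes. In CxH against CxWT, 2 were down-regulated (Enpp6 and Nkx2-2), where 11.5% of all genes were, and none was up-regulated, where 9.46% were, or 20.9% in either direction. In MH against MWT, 1 was up-regulated (Bmp4), where 12.3% of all genes were, and none down-regulated, where 12.7% were, or 25.0% in all. None was called in CxH against MH, where 2.43% of all genes were higher and 1.06% lower, or 3.50% in all. In CxWT against MWT 1 was higher (Nkx2-2), where 5.43% of all genes were higher and 2.11% lower, or 7.54% in all. In the pairs that differ in both labels, 2 were higher (Bmp4 and Sox8) and 1 lower (Enpp6) in CxH than in MWT, where 15.6% of all genes were higher and 15.1% lower, or 30.7% in all. In MH against CxWT, 3 were lower (Olig2, Enpp6 and Nkx2-2), where 8.89% of all genes were lower and 6.41% higher, or 15.3% in all. With 8 genes, a count that differs from the share of all genes by 1 or 2 genes is no result about the lineage genes as a group. The median log2 ratio of the 8 genes was -0.32 in CxH against CxWT, where that of all genes was -0.09, and -0.05 in MH against MWT, where that of all genes was -0.07. After the correction for GC and length described further on, it was -0.60 and -0.33. Between MH and CxWT it was -0.63, where that of all genes was -0.11. Pairs that have a library in common share its reads, so they are not independent of each other.

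**Figure D2:**
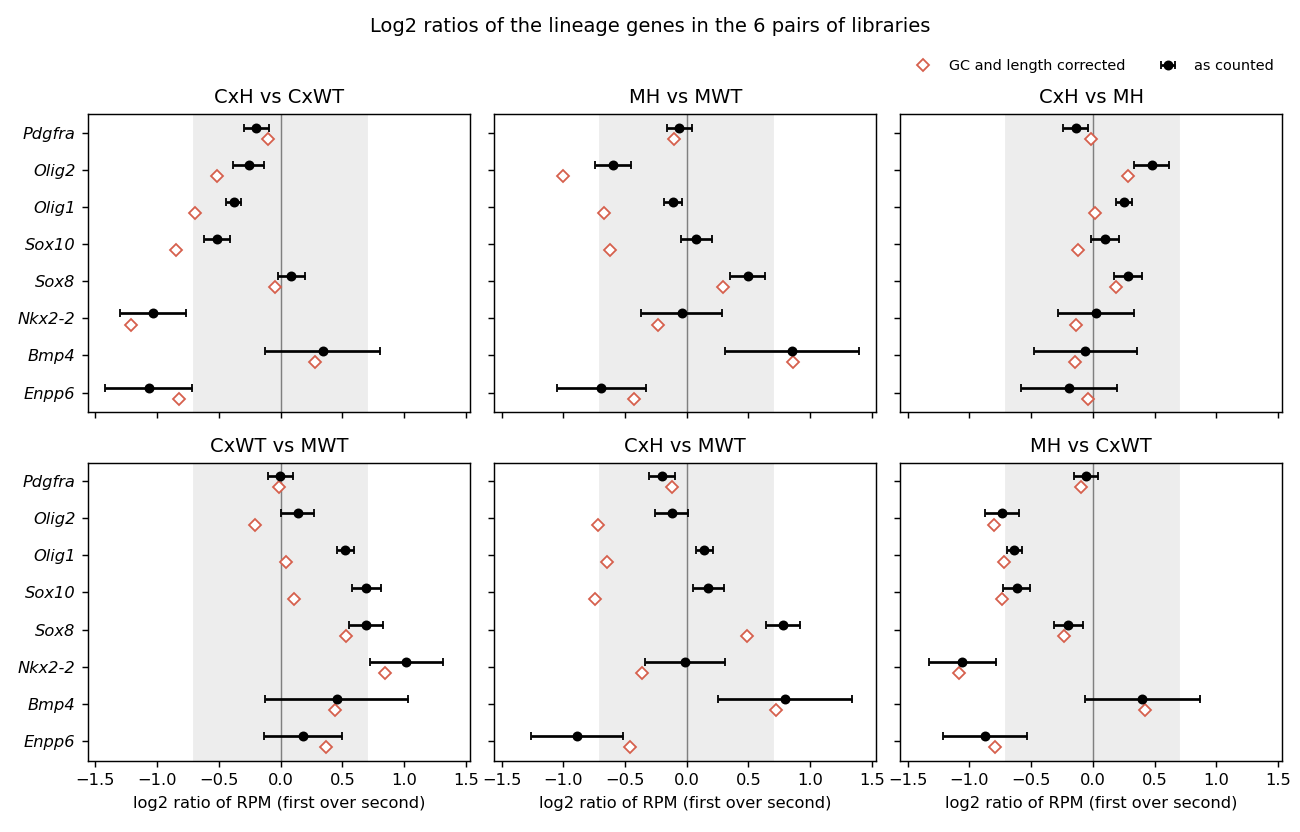
Log2 ratio of RPM (first library over second) of the 8 lineage genes in the 6 pairs of libraries; filled points are values as counted with 95% counting intervals, open diamonds are values corrected for GC and length, and the grey band is the range within 0.7 of 0. Enpp6 and Nkx2-2 lie below the band in CxH against CxWT, and Pdgfra lies within it in every pair.

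The levels were also read for genes whose libraries did not overlap between labels. Both libraries labelled H were below both labelled WT for 4 of the 8 genes (Pdgfra, Olig2, Enpp6 and Nkx2-2), against 36.9% of all genes. Of these, Enpp6 was the gene whose counting intervals also stood apart, since the nearest H and WT libraries of Pdgfra, Olig2 and Nkx2-2 differed by less than the 95% counting interval of their ratio. For Bmp4 alone both were above, against 24.3% of all genes. Both libraries labelled Cx were above both labelled M for 3 genes (Olig1, Sox10 and Sox8), against 13.5% of all genes, and for none were both below, against 6.17%. For Sox10 the difference between CxH and MH, 0.10, had a counting interval of -0.02 to 0.21. After the GC and length correction Sox10 stood at -0.12 in CxH against MH and 0.11 in CxWT against MWT, and Olig1 at 0.02 and 0.05.

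The ratios moved with GC content, and the lineage genes are rich in GC. Their median transcript GC was 54.9%, where that of all genes was 50.7%, and Sox10, at 61.7%, and Olig1, at 60.8%, stood at percentiles 97.5 and 96.2 of all genes. Enpp6, at 44.96%, and Pdgfra, at 47.7%, stood at percentiles 20.9 and 33.9. Over the 541 genes with a GC content above 60% the median log2 ratio was 0.60 in MH against MWT and 0.61 in CxWT against MWT, while over the 1832 genes up to 44% it was -0.39 and -0.17. In CxH against MWT it was 0.82 above 60% and -0.63 up to 44%, so the GC-rich genes were lower in MWT than in the other 3 libraries as a class. The trend was not limited to MWT, since the same medians were 0.24 and -0.45 in CxH against CxWT and 0.26 and -0.24 in CxH against MH. Log2 ratios were then corrected for both GC content and length, an alternative taken up with the data already known. With it Sox10 changed its sign in CxH against MWT, from 0.18 to -0.74, and passed the threshold as lower in CxH against CxWT, at -0.85, and in MH against CxWT, at -0.73. Olig1 passed it in MH against CxWT, at -0.72, and stood at -0.70, not called, in CxH against CxWT and at -0.67 in MH against MWT. Olig2 passed it in MH against MWT, at -1.01, and stood at -0.72 in CxH against MWT, where its counts did not pass the test. Enpp6 kept its call in CxH against CxWT, at -0.83, and lost it in CxH against MWT, at -0.46, while it stood at -0.43 in MH against MWT. Nkx2-2 kept its 3 calls, at -1.21, -1.08 and 0.85, and the call of Sox8 in CxH against MWT was lost, at 0.49. The part of GC content in these ratios was not tested.

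**Figure D3:**
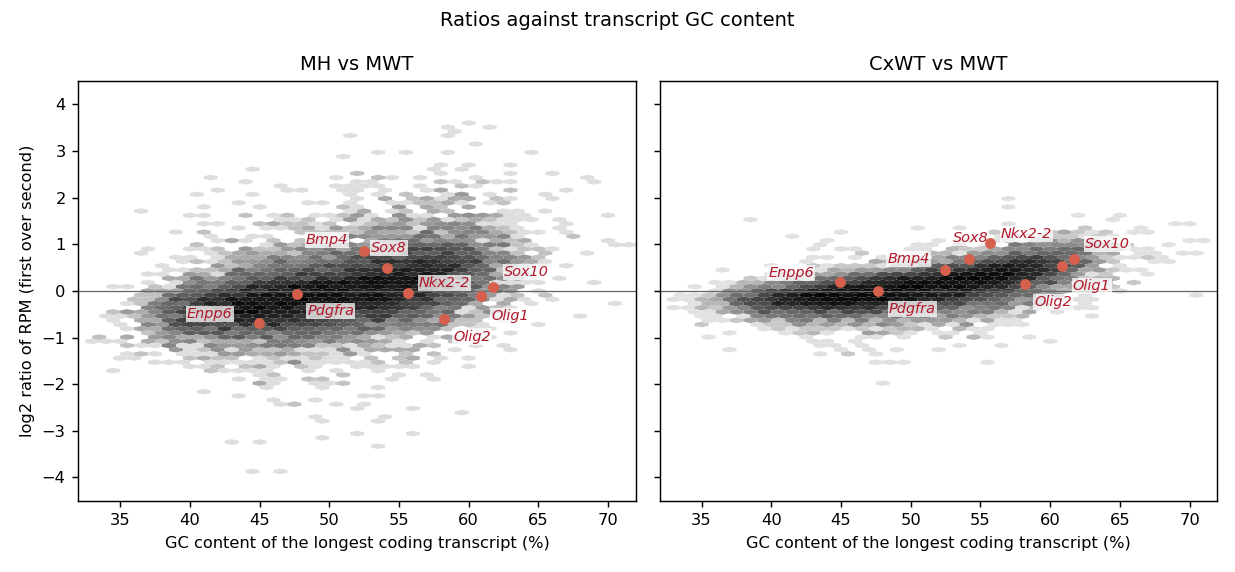
Log2 ratio of RPM against the GC content of the longest coding transcript (%) in MH against MWT and CxWT against MWT, for genes that reached 100 reads in all 4 libraries in grey (darker cells hold more genes, log scale) and the 8 lineage genes in red. The ratios rise with GC content, and Olig2, Olig1 and Sox10 lie at the GC-rich end, below the trend in MH against MWT, with corrected ratios of -1.01, -0.67 and -0.62.

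Other stages of the lineage were read from lists of markers. Of 19 other precursor markers found, 2 were higher and 4 lower in CxH than in CxWT, and 1 was higher and 2 lower in MH than in MWT, with medians of -0.12 and -0.07. These counts lie near the shares of all genes, 9.46% higher and 11.5% lower in the first pair and 12.3% and 12.7% in the second, which also apply to the lists that follow. Ncan, a chondroitin sulfate proteoglycan that neurons and astrocytes make too, was called higher in both, with 176 RPM in CxH, 79.3 RPM in CxWT, 148 RPM in MH and 62.6 RPM in MWT. Lhfpl3 was called lower in both, with 14.5, 63.5, 22.7 and 59.1 RPM, and Megf11 was too. Of 15 genes of differentiating oligodendrocytes, 6 were lower in CxH than in CxWT and 7 in MH than in MWT, where 11.5% and 12.7% of all genes were lower. None was higher, and the medians were -0.67 and -0.64. Bcas1, a marker of early myelinating cells, had 99.6 RPM in CxH, 165 RPM in CxWT, 102 RPM in MH and 176 RPM in MWT. Tcf7l2, a factor of differentiating oligodendrocytes that thalamic neurons also make, was called lower in both, at -4.00 and -3.88.

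Many genes of mature myelin were called lower in the libraries labelled H. Of 26 genes, 15 were lower in CxH than in CxWT and 15 in MH than in MWT, against the same shares of all genes. None was higher, and the medians were -0.77 and -0.76, or -0.86 and -0.64 after the GC and length correction. Ugt8a is in both lists. In MH against CxWT 18 were lower, where 8.89% of all genes were, and in CxH against MWT 10 were lower, where 15.1% were. Between libraries of the same H or WT label, 1 gene (Apod) was higher in CxH than in MH, where 2.43% of all genes were. In CxWT against MWT 2 (Mag and Ppp1r14a) were higher, where 5.43% were. After the GC and length correction Apod kept its call, and Mag and Ppp1r14a lost theirs. Mbp, the myelin basic protein, had 3077, 5487, 3115 and 3746 RPM and was called lower in CxH than in CxWT, at -0.83, and stood at -0.27 between MH and MWT. The 26 genes summed to 147 times the RPM of Pdgfra in CxH and 133 times in MH, against 231 times in CxWT and 195 times in MWT. Among these lists, the correction for GC and length moved the median of the lineage genes most and that of differentiating genes little. In CxH against CxWT it gave -0.60 for the 8 lineage genes, -0.15 for other precursor markers and -0.63 for differentiating genes, and in MH against MWT -0.33, -0.21 and -0.61. With it 10 myelin genes were called lower in MH than in MWT. The area markers named above move with the same labels, and their part in these values was not tested.

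**Figure D4:**
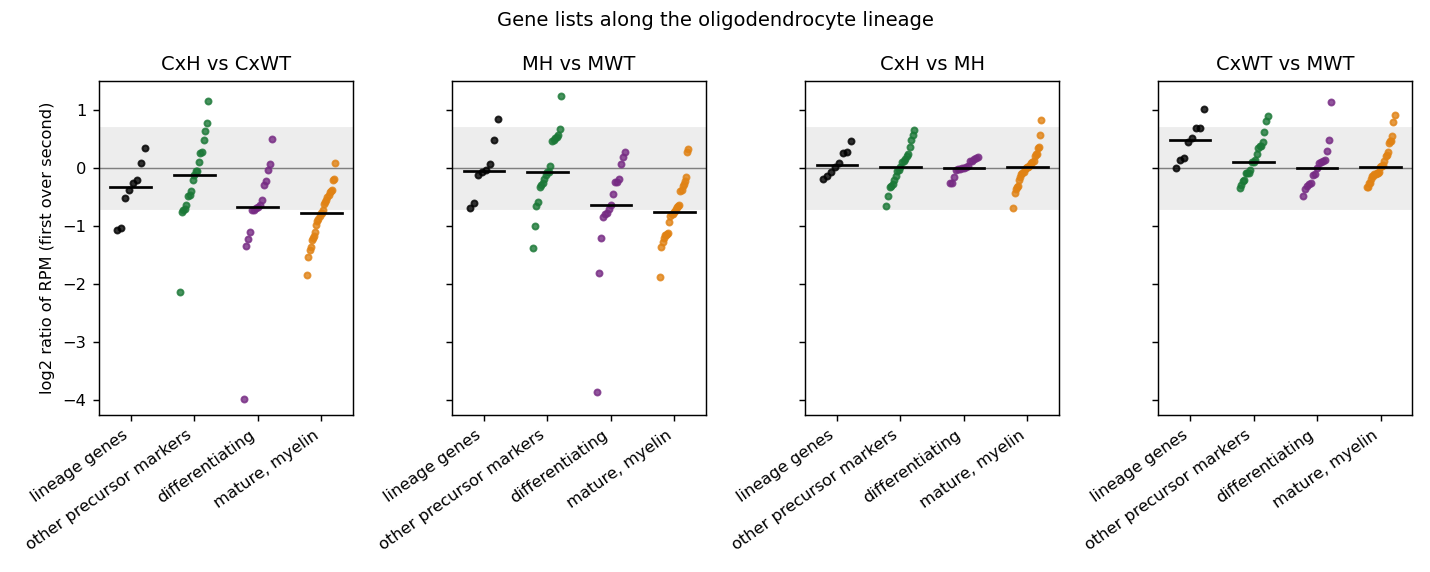
Log2 ratio of RPM (first library over second) of the genes of 4 lists along the lineage in 4 pairs of libraries; each point is a gene, the line is the list's median, and the grey band is the range within 0.7 of 0. The medians of differentiating and myelin genes lie below 0 in CxH against CxWT and MH against MWT and around 0 in CxH against MH and CxWT against MWT.

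Pathways that act on the precursors were read in the same way. Of 11 sonic hedgehog genes found, the pathway through which Nkx2-2 is induced, 5 were lower in CxH than in CxWT (Shh, Ptch1, Smo, Gli1 and Hhip), where 11.5% of all genes were, and 1 higher (Boc), where 9.46% were. In MH against MWT, Shh and Hhip were lower, where 12.7% of all genes were, and Boc and Gas1 higher, where 12.3% were. After the GC and length correction none was called higher in either pair, and Shh, Ptch1, Smo and Gli1 were called lower in both. Hhip lost its calls, at -0.62 and -0.64, and the median of the list in MH against MWT moved from 0.37 to -0.15. The ligand Shh had 1.64 RPM in CxH, 4.91 RPM in CxWT, 1.74 RPM in MH and 3.90 RPM in MWT. The midbrain and diencephalon markers were also lower in the libraries labelled H, and their part in the values of the hedgehog genes was not tested. Of 21 BMP genes found besides Bmp4, 4 were higher and 2 lower in CxH than in CxWT, and 3 were higher and 1 lower in MH than in MWT, beside 9.46% and 11.5% of all genes in the first pair and 12.3% and 12.7% in the second. Chrd, which binds BMP ligands and blocks them, was called higher in both, at 1.54 and 2.22, as was Bmp3, at 2.06 and 2.15. Smad9, a mediator of BMP signals, was called lower in both, at -1.15 and -0.96. The other calls were Bmp7 and Id1 higher and Bmp2 lower in CxH than in CxWT, and Bmp6 higher in MH than in MWT.

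Among 15 Notch genes and other brakes on differentiation, 2 were higher and 1 lower in CxH than in CxWT and 3 were higher in MH than in MWT, beside 9.46% of all genes higher and 11.5% lower in the first pair and 12.3% higher in the second. Lingo1 and Rtn4r, which neurons make too, were called higher in both, Lingo1 at 1.34 and 2.14 and Rtn4r at 2.14 and 2.56. Gpr37, an oligodendrocyte receptor, was called lower in CxH than in CxWT, at -1.09, and stood at -0.19 between MH and MWT. Among 14 partner transcription factors, 3 were higher in CxH than in CxWT and 6 in MH than in MWT, beside 9.46% and 12.3% of all genes, and none was lower. They included Tcf4, a dimer partner of OLIG2, at 1.06 and 1.15, and Nfix at 1.34 and 1.89. After the GC and length correction 4 of the 14 were called higher in each pair and 1 was called lower in CxH than in CxWT.

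Markers of other cell types moved with some pairs. The 12 microglia markers summed to 788 RPM in CxH, 436 RPM in CxWT, 500.4 RPM in MH and 645 RPM in MWT. Of these, 7 were called higher in CxH than in CxWT, where 9.46% of all genes were. In MH against MWT 3 were lower, where 12.7% were. Between libraries of the same H or WT label, 6 were higher in CxH than in MH, where 2.43% were. In CxWT against MWT 5 were lower, where 2.11% were. In CxH against MWT 1 was higher, where 15.6% were, and in MH against CxWT none was called, where 15.3% were. The 12 astrocyte markers summed to between 3734 and 4576 RPM, with 2 called higher and 2 lower in CxH than in CxWT and 4 called lower in MH than in MWT (Aqp4, Gfap, Slc4a4 and S100b). The 13 endothelial and mural markers summed to between 254 and 338 RPM, with 2 called higher in CxH than in CxWT and none in MH against MWT. The 8 neuron markers summed to between 3243 and 3718 RPM. Of these, 1 was higher and 1 lower in CxH than in CxWT, and 1 was higher and 2 lower in MH than in MWT. Beside these lists, 9.46% of all genes were higher and 11.5% lower in CxH than in CxWT. In MH against MWT the shares were 12.3% and 12.7%. No marker of these lists was at 0 in any library, and their part in the levels of the lineage genes was not tested.

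Both labels were also read together with the quasi-likelihood test of edgeR in an additive fit over the 4 libraries, which leaves 1 residual degree of freedom. None of the 8 genes passed a Benjamini-Hochberg adjusted p of 0.05 for the genotype label, where 18.7% of all genes did. At an unadjusted p 2 of the 8 passed, where 4323 of 12700 genes did. These were Enpp6, with a log2 difference of H minus WT labels of -0.88 and an edgeR adjusted p of 0.0600, and Olig2, at -0.43 with an edgeR adjusted p of 0.134. Both were lower in 2 of 2 pairs of libraries with the same Cx or M label. These are the libraries of the fit that picked the genes, so this is no separate test. For the area label no gene of the table passed the adjusted threshold and 615 did unadjusted, among them Olig1, at 0.39, and Sox8, at 0.49, each with an edgeR adjusted p of 0.818. Both were higher in the library labelled Cx in 2 of 2 pairs with the same H or WT label, again the libraries of the fit. With TMM factors, Olig2 (-0.35, edgeR adjusted p of 0.193) and Olig1 (0.36, edgeR adjusted p of 0.797) no longer passed unadjusted, and Enpp6 and Sox8 did. In this fit Ids differed by -0.07 between H and WT.

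The genes nearest in profile were sought among the 11010 genes that reached 100 reads in all 4 libraries, by the distance between log2 RPM values centred on each gene's mean over the 4 libraries. Nearest to Pdgfra were Tent4b, Sar1a and Ankmy2, at distances of 0.0117, 0.0165 and 0.0202. Nearest to Olig2 were Lmo1, Tmem268 and Peli2, at 0.0572, 0.0717 and 0.0744. Nearest to Sox10 were Tmem132e, Tecr and Cit, at 0.0603, 0.0637 and 0.0759. With 4 libraries such likeness is a description only.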

How the data were processed

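RNA from Cx and M of Ids-ko and wt mice was pooled from 7 mice per condition and sequenced as 1 library each on a SOLiD 3 Plus instrument. The authors aligned reads with PASS 2.10 to NCBI37/mm9, the build also given in the submitters' processing notes, with at most 2 mismatches, and deposited raw counts of reads aligned to a single gene, kept where over 50% of a gene's length was covered. The gene annotation and the use of strand are not given in the sources used here.

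Entrez identifiers were given RefSeq symbols for 12690 of 12700 genes, and 12427 were matched to GENCODE vM1 for mm9 positions, of which 12235 had a protein-coding transcript for length and GC content. RPM are counts divided by the aligned reads the authors state, and ratios took counts of 0 as 1. Precision is set by depth: 3 reads are 0.0779 to 0.104 RPM, and intervals, standard errors and p-values cover counting error only. The test was a Poisson likelihood ratio test for each pair of libraries over all genes, as in the study. Without replicates the edgeR quasi-likelihood test could be run only in the additive fit. The alternatives were other scalings (column totals, TMM, DESeq2 size factors), a filter at 100 reads, a log2 threshold of 1, Benjamini-Hochberg adjustment, 0.5 added to each count, an edgeR exact test that assumes a coefficient of variation of 0.1 or 0.2, and a correction of ratios by a cubic fit on GC content and log length over the genes that reached 100 reads in all 4 libraries. The steps were tested on simulated data.

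The 9 genes and all lists were chosen with earlier results of these data known. Named are all members and Ids, from other lists at most the 4 genes with most reads and genes of any count of 5 or fewer, and for Pdgfra, Olig2 and Sox10 the 3 nearest profiles. Tools were R 4.3.3 with DESeq2 1.42.0 and edgeR 4.0.16, and Python 3.11.15 with matplotlib 3.10.9, pandas 2.3.3, scipy 1.17.1 and numpy 2.4.6.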

Additional observations from a re-analysis of the deposited data

Results flagged for a closer look

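Ids had log2 ratios of opposite sign between libraries labelled H and WT in the areas, -1.386 for CxH over CxWT and 1.245 for MH over MWT. Between the areas it was likewise opposite, -1.443 for CxH over MH and 1.187 for CxWT over MWT. Each value rests on 1 library per condition, and the difference between the ratios was not tested.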

How the results depend on the processing

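The number of the 8 lineage genes called stayed within 1.5 times its value under every alternative run in CxH against CxWT, CxH against MH and CxWT against MWT. In MH against MWT, with 1 called, it was 2 with column totals as scaling and 2 with the GC content and length correction, and 0 with at least 100 reads in either library, 0 at a log2 threshold of 1 and 0 with an assumed coefficient of variation of 0.2. In CxH against MWT, with 3 called, it was 1 with column totals, 0 at a log2 threshold of 1 and 0 with an assumed variation of 0.2. In MH against CxWT, with 3 called, it was 1 at a log2 threshold of 1, 1 with an assumed variation of 0.2 and 5 with the GC content and length correction. Of 474 single ratios under alternatives, 423 stayed called or uncalled as before and within the counting interval of the ratio as counted. A further 27 stayed uncalled but moved outside that interval, 18 lost the call and 5 gained it. The filter at 100 reads, the log2 threshold of 1, the Benjamini-Hochberg adjustment and the assumed variations of 0.1 and 0.2 leave the ratio itself unchanged. They gave 42, 42, 48, 48 and 42 of the 423, which therefore say nothing about how stable the ratios are. The last ratio crossed to a call in the other direction, Sox10 in CxH against MWT, at -0.74 with the GC content and length correction. In all 15 ratios changed sign, 7 of them under that correction, among them Olig1 in CxH against MWT, from 0.14 to -0.65, Sox10 in MH against MWT, from 0.08 to -0.62, and Olig2 in CxWT against MWT, from 0.14 to -0.21. The cause was not tested. Column totals shifted the median of all genes by -0.11 in CxH against MWT, and TMM and DESeq2 size factors shifted it by 0.11 in MH against CxWT. Mice that gave both areas cannot be matched within the pools. Pools were paired by label in the additive fit alone, which compares each label within the other over the 4 libraries. No replicate could be left out. Depth limits Bmp4, Enpp6 and Nkx2-2, with 39 to 313 reads per library.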
